A study of Mus musculus with 22 samples.

Results

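Cx3cl1, Cxcl16 and Cx3cr1 were followed as 3 of the 655 endogenous genes of a mouse myeloid panel, chosen by name as the chemokines made as membrane proteins together with the receptor of Cx3cl1. Fractalkine, the product of Cx3cl1, carries its chemokine domain on a mucin stalk anchored in the cell membrane. There it can tether leukocytes that bear Cx3cr1, and proteases called sheddases can cut it free as a soluble attractant. CXCL16 is built the same way, attracts T and NK cells through Cxcr6, and also serves as a scavenger receptor for oxidized lipoprotein on macrophages. CX3CR1 is a receptor of monocytes, macrophages, microglia and some lymphocytes, while Cx3cl1 is known from endothelial, epithelial and neuronal cells. All 3 genes passed the filter on low values, which kept 420 of the 655 genes.

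RNA came from tumour isolates labelled granulocytic myeloid-derived suppressor cells (G-MDSCs), which resemble neutrophils and can restrain T cells. Female neu-N mice (strain FVB-Neu-N, which carries a rat neu transgene) aged 7 to 8 weeks had received 50000 NT2.5 cells, a syngeneic line from a spontaneous mammary tumour. Treatment began 3 days later and lasted 3 weeks. The 6 vehicle samples (1 to 4, V1 and V2) came from tumours given PBS, 0.5% methylcellulose and isotype antibodies. The 4 entinostat samples came from tumours of mice given the class I histone deacetylase inhibitor entinostat by gavage at 5 mg/kg daily in 0.5% methylcellulose. Of the remaining groups, each of 4 samples, one received this entinostat dosing with anti-PD-1 (100 µg per mouse, 2 times a week), one with anti-CTLA-4 on the same schedule, and one with both antibodies, here called the triple combination. No group among these samples received an antibody without entinostat. The protocol mentions an anti-HER2 antibody in some studies and does not say which of these samples, vehicle included, received it. In the entinostat plus anti-CTLA-4 group and in the triple combination, 2 columns shared a name and are called samples a and b. The labels do not say whether each sample was a separate mouse, so the spread behind each p-value is that between these samples and may be technical.

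Transcripts were counted on the NanoString nCounter system, which hybridizes a colour-coded barcode to each transcript and counts it without amplification. The panel's probes lie on the RefSeq transcripts NM_009142.3 (Cx3cl1, from base 125), NM_023158.6 (Cxcl16, from base 679) and NM_009987.3 (Cx3cr1, from base 2696). Lanes held 23296 to 443821 barcode counts, and values below are normalized counts as deposited, scaled by 1 factor per lane. Ly6g, the antigen used to select the cells, lay between 1.74 and 30.2 normalized counts and passed the background limit of 29.3 in 1 of 22 samples. Of 10 listed neutrophil markers on the panel, Ly6g and Mmp8 did not pass the filter on low values. The other 8 had summed levels from 3459 to 40729.9 normalized counts. Triple combination sample a was run among the vehicle samples, and vehicle sample 3 among the triple combination samples. Leaving both out changed the call of 1 of the 30 comparisons below, which is given with Cxcl16.

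The upstream regions of Cx3cl1 and Cx3cr1 are shown because the levels of the ligand and its receptor ran in opposite directions over the samples (below). They are the 250 bases before each annotated gene start, from RefSeq on GRCm38.p6, read on the gene's strand. The Cx3cl1 stretch lies at chr8:94771930-94772179 on the plus strand and the Cx3cr1 stretch at chr9:120068297-120068546 on the minus strand. Capitals mark matches, on either strand, to TATAAA (the letters of a TATA box), GAGGAA (a core of PU.1 sites) or one form of the NF-kB site.
Cx3cl1: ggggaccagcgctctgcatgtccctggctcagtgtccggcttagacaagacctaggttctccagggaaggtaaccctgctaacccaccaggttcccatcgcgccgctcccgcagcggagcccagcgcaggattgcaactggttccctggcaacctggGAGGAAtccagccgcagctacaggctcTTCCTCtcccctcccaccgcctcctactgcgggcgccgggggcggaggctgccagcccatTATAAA
Cx3cr1: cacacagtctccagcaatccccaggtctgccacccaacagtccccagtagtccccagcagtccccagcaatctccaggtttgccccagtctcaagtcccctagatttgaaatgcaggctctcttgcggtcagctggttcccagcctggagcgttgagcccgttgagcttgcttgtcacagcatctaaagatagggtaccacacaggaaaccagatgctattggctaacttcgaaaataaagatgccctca
Cx3cl1 held 1 TATAAA, at 6 to 1 bases before the start, and 2 GAGGAA matches, at 93 to 88 bases before it and, on the other strand, at 66 to 61. None of these letters occurred in the Cx3cr1 stretch, and the NF-kB form occurred in neither. Over 32841 RefSeq promoters of the same length, 12.4% held TATAAA, 23.3% held GAGGAA and 0.356% held the NF-kB form. The Cx3cl1 stretch held 14 CG pairs, more than 70.6% of those promoters, and the Cx3cr1 stretch held 4, more than 37.8%. No measurement here bears on binding to these letters, or on whether a TATAAA so near the annotated start works as a TATA box. The table of promoters was matched for 2 of the 3 genes.

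Cx3cl1, the membrane-bound ligand, was measured above background in 22 of 22 samples and was highest with entinostat plus anti-CTLA-4 and lowest with entinostat alone. In vehicle it lay between 90.5 (sample 2) and 179 (sample V1) normalized counts, with a median of 109.7. The entinostat samples 1 to 4 gave 72.7, 102, 92.2 and 89.9 normalized counts. These sat at the low end of the vehicle range or below it, and both groups overlapped. With entinostat plus anti-PD-1, samples 1 to 4 gave 109, 118, 105 and 92.2 normalized counts. With entinostat plus anti-CTLA-4, samples a, b, 1 and 3 gave 109, 129, 142 and 140.0. In the triple combination, samples a, b, 2 and 4 gave 105, 127, 88.0 and 80.6. The value of triple combination sample 2 rested on 9 barcode counts, with a 95% Poisson interval of 40.2 to 167 normalized counts that covers counting error only.

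Between entinostat plus anti-CTLA-4 and entinostat alone Cx3cl1 differed beyond the spread between samples. Its mean was 130.2 ± 15.1 normalized counts (SD, n = 4) against 89.2 ± 12.3 (SD, n = 4), and each of the 4 samples given anti-CTLA-4 exceeded each of the 4 without it. The difference was 0.54 on the log2(normalized count + 1) scale (SE 0.191, 1.46-fold, limma adjusted p = 0.0272 over 420 genes). The exact two-sided permutation p of this single gene was 0.0286, the smallest that 4 against 4 samples can give. The share of the 420 genes that separated these groups in this way is not given here. Of the 420 genes, 48.3% were called in this comparison, 5.71% higher and 42.6% lower with anti-CTLA-4, so Cx3cl1 stood among the few in the higher direction. The median gene stood at -0.67 on the log2 scale. With each sample centred on its median gene the calls split into 121 higher and 104 lower, in place of 24 and 179 as deposited, and the Cx3cl1 difference was 1.26.

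These 2 groups shared no cartridge (a set of up to 12 lanes with 1 run barcode in the column headers), so no within-cartridge value exists. Lane depth did not overlap either, at 107446 to 162080 barcode counts with entinostat and 165662 to 443821 with entinostat plus anti-CTLA-4. Cx3cl1 rested on 40 to 49 barcode counts in the former and 74 to 356 in the latter. The part of depth in the Cx3cl1 difference was not tested. With cartridge as a block, estimated through vehicle and the triple combination, the Cx3cl1 difference was 0.51 and its adjusted p rose to 0.129. The call was also lost on leaving out entinostat sample 1 (adjusted p = 0.0846), entinostat sample 3 (0.0503), or entinostat plus anti-CTLA-4 sample 1 (0.0781), sample 3 (0.0720) or sample b (0.0593), all with limma, while the difference stayed between 0.45 and 0.62 over the 22 samples left out in turn.

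Against vehicle, the difference of Cx3cl1 did not pass the test in any of the 4 treated groups, and its largest was with entinostat alone. There it was -0.38 on the log2 scale (SE 0.175, 0.769-fold, limma adjusted p = 0.0871), and it was -0.32 within cartridge 1 (adjusted p = 0.165). Of the entinostat samples 4 of 4 lay below the vehicle mean of 118.7 normalized counts, which exceeded the vehicle median of 109.7. In that comparison 40% of the 420 genes were called, and the median gene was 0.50 higher. The call depended on how the samples were scaled. With each sample centred on its median gene the Cx3cl1 difference was -0.92 (adjusted p = 0.0243), and the calls over all genes split into 95 higher and 81 lower in place of 152 and 16. Quantile normalization gave -0.93 (0.0284), edgeR with TMM factors -1.14 (0.0141) and DESeq2 -1.02 (0.00553). On simulated data in which every changed gene rose, median centring, TMM factors and DESeq2 made many false calls among the unchanged genes. Limma and edgeR on the deposited scaling made few. The simulated samples were drawn on the deposited scaling, so this could not show which scaling suits the real samples. Entinostat plus anti-PD-1 differed from vehicle by -0.12 (adjusted p = 0.625), also with 4 of 4 samples below the vehicle mean, where 21.9% of genes were called. Entinostat plus anti-CTLA-4 differed by 0.16 (0.960) and the triple combination by -0.23 (0.450), and in both comparisons limma called 0% of the 420 genes, with 6 and 59 genes at an unadjusted p under 0.05.

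Ordered by mean log2 level, Cx3cl1 rose from entinostat (6.49) through the triple combination (6.64), entinostat plus anti-PD-1 (6.74) and vehicle (6.86) to entinostat plus anti-CTLA-4 (7.03). No neighbours in this order differed beyond their spread, with limma adjusted p of 0.659, 0.945, 0.625 and 0.960 in turn. The triple combination minus entinostat plus anti-CTLA-4 was -0.39 (adjusted p = 0.185). Entinostat plus anti-CTLA-4 minus entinostat plus anti-PD-1 was 0.29 (adjusted p = 0.269), in a comparison where 31% of genes were called, with 6 higher and 124 lower as deposited and 29 and 99 after median centring.

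**Figure D1:**
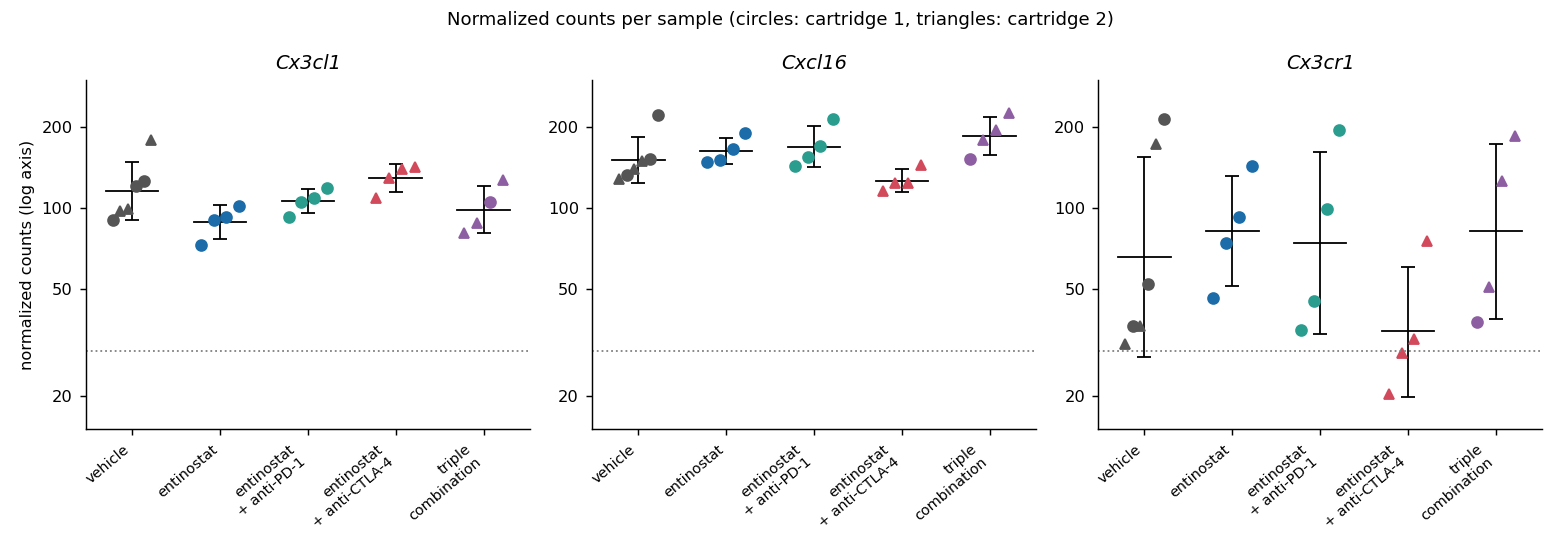
Normalized counts of Cx3cl1, Cxcl16 and Cx3cr1 in each of the 22 samples on a log axis, by treatment group; bars give the mean and SD computed on the log2 scale, circles and triangles mark cartridge 1 and 2, and the dotted line is the background limit of 29.3 normalized counts. The 4 entinostat plus anti-CTLA-4 samples all lie above the 4 entinostat samples for Cx3cl1 and below them for Cxcl16, while Cx3cr1 runs from 20.4 to 214 with overlap between all groups.

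Cxcl16, the other membrane-bound chemokine, was above background in 22 of 22 samples and had its lowest mean with entinostat plus anti-CTLA-4. Vehicle ran from 128 (sample V2) to 221 (sample 2) normalized counts with a median of 145. Entinostat samples 1 to 4 gave 149, 190.3, 166 and 151 normalized counts, and entinostat plus anti-PD-1 samples 1 to 4 gave 171, 143, 155 and 215. Both groups lay within the vehicle range. Entinostat plus anti-CTLA-4 samples a, b, 1 and 3 gave 115, 145, 124 and 124 normalized counts. Triple combination samples a, b, 2 and 4 gave 152, 179, 225 and 194. Every triple combination sample thus exceeded every entinostat plus anti-CTLA-4 sample, and so did every entinostat sample. How many of the 420 genes separated these groups in the same way is not given here. The median gene stood at 0.45 on the log2 scale in triple combination minus entinostat plus anti-CTLA-4. It stood at -0.67 in entinostat plus anti-CTLA-4 minus entinostat.

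None of the 10 pairs of groups was called for Cxcl16. The triple combination exceeded entinostat plus anti-CTLA-4 by 0.55 on the log2 scale (SE 0.172, 1.47-fold, 4 of 4 samples above the other group's mean), with an unadjusted limma p of 0.00458 and an adjusted p of 0.148. In that comparison 0% of the 420 genes were called, with 115 genes at an unadjusted p under 0.05. Within cartridge 2 the difference was 0.65 (adjusted p = 0.185), and it passed on leaving out triple combination sample a (0.65, adjusted p = 0.0446) or entinostat plus anti-CTLA-4 sample a (0.51, 0.0352). It also passed when triple combination sample a was left out together with vehicle sample 3 (0.65, adjusted p = 0.0479).

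For Cxcl16, entinostat plus anti-CTLA-4 minus entinostat was -0.36 on the log2 scale (SE 0.172, limma adjusted p = 0.0853), and minus entinostat plus anti-PD-1 it was -0.41 (adjusted p = 0.0763). The sign of both rested on the scaling. On median centring the first was 0.35 (adjusted p = 0.142), and with quantile normalization, edgeR's TMM factors and DESeq2 it was 0.28, 0.47 and 0.40. The second was 0.072, 0.023, 0.13 and 0.13 under the same settings. Entinostat minus vehicle also changed sign, with 0.11 (adjusted p = 0.570) as deposited, -0.43 (0.0713) after median centring, and -0.58 (0.0241) and -0.46 (0.0409) with TMM factors and DESeq2. The triple combination differed from vehicle by 0.30 (adjusted p = 0.340), entinostat plus anti-PD-1 by 0.16 (0.486) and entinostat plus anti-CTLA-4 by -0.26 (0.960).

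**Figure D2:**
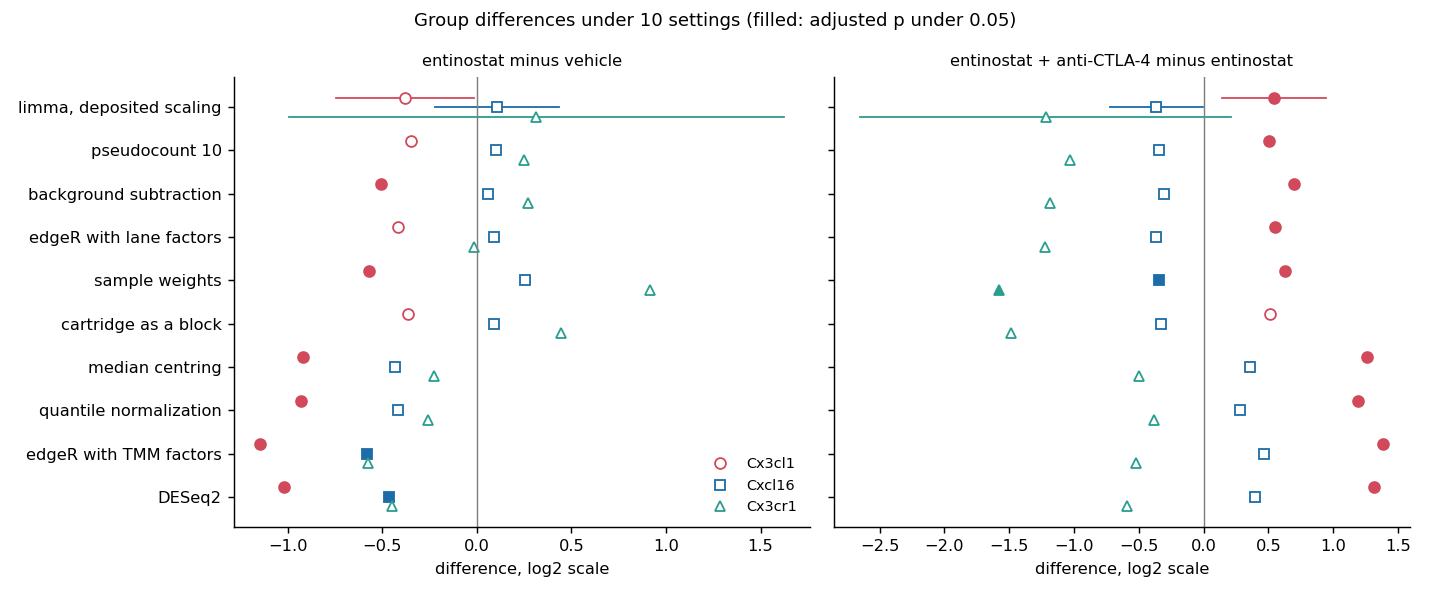
Differences between groups on the log2 scale for Cx3cl1 (circles), Cxcl16 (squares) and Cx3cr1 (triangles) under 10 settings, with entinostat minus vehicle on the left and entinostat plus anti-CTLA-4 minus entinostat on the right; lines are 95% confidence intervals of the limma fit on the deposited scaling and filled symbols have an adjusted p under 0.05. Cx3cl1 stays below 0 on the left and above 0 on the right, whereas Cxcl16 changes side with the 4 settings that scale samples on all genes.

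Cx3cr1, the receptor, varied widely within groups. Vehicle samples ran from 31.1 (V1) to 214 (2) normalized counts with a median of 44.3, and of these samples 2 and 3 (173) stood above the other 4, which lay at 52.0 or below. Entinostat samples 1 to 4 gave 46.1, 144, 92.2 and 74.2 normalized counts. Entinostat plus anti-PD-1 samples 1 to 4 gave 44.9, 35.0, 98.8 and 195. Low and high samples thus occurred in each of these groups. Entinostat plus anti-CTLA-4 samples a, b, 1 and 3 gave 75.3, 32.5, 20.4 and 28.9 normalized counts, and samples 1 and 3 were under the background limit of 29.3. Against the negative controls of their own lanes, these samples stood at 8.16 and 6.71 times the mean, within the range of 3.56 (entinostat plus anti-PD-1 sample 2) to 35.5 times over all samples. Triple combination samples a, b, 2 and 4 gave 37.5, 50.7, 186 and 126, where sample 2 rested on 19 barcode counts (95% Poisson interval 112 to 290.1 normalized counts).

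The span from 20.4 to 214 normalized counts was 10.5-fold, against 2.46-fold for Cx3cl1 and 1.95-fold for Cxcl16. The SD over all samples was 1.02 on the log2 scale for Cx3cr1, larger than that of 81.2% of the 420 genes. It was 0.30 for Cx3cl1 and 0.27 for Cxcl16, larger than 30.2% and 24.3% of genes, with a median of 0.49.

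No pair of groups differed in Cx3cr1 beyond this spread. The widest gap, entinostat plus anti-CTLA-4 against entinostat, was -1.22 on the log2 scale, with a 95% interval from -2.65 to 0.21 and a limma adjusted p of 0.144. Its counterpart, the triple combination against entinostat plus anti-CTLA-4, was 1.21 (adjusted p = 0.234). Against vehicle, entinostat differed by 0.32 (95% interval -0.99 to 1.62, adjusted p = 0.689), entinostat plus anti-PD-1 by 0.17 (0.854), the triple combination by 0.31 (0.758) and entinostat plus anti-CTLA-4 by -0.90 (0.960). The first of these turned to -0.22 after median centring and -0.16 without vehicle samples V1 and V2, and the second to -0.13 and -0.30. The triple combination turned to -0.27 with TMM factors, -0.14 with DESeq2 and -0.16 without V1 and V2. Differences inside these intervals were not detectable with this spread between samples.

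Over the 5 groups together, the moderated F test passed for none of the 3 genes, with adjusted p of 0.161 for Cx3cl1, 0.105 for Cxcl16 and 0.485 for Cx3cr1, while 33.1% of the 420 genes passed. In all, 1 of the 30 comparisons of a gene between 2 groups was called, and 5 had an unadjusted p under 0.05. In the other 3 pairs of treated groups, entinostat plus anti-PD-1 against entinostat and the triple combination against either, limma called 0% of the 420 genes, with 7, 53 and 33 genes at an unadjusted p under 0.05. Whether the effect of adding anti-CTLA-4 to entinostat depended on anti-PD-1 was tested as an interaction. It was -0.64 on the log2 scale for Cx3cl1 (adjusted p = 0.252), 0.50 for Cxcl16 (0.255) and 1.36 for Cx3cr1 (0.328).

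The receptor and its ligand ran in opposite directions from sample to sample. Over the 22 samples Cx3cr1 and Cx3cl1 correlated at Pearson r = -0.65 and Spearman rho = -0.73 (permutation p, adjusted over 3 pairs, 0.00144 and 0.000435). With group means subtracted r was -0.59, without the 2 samples farthest from the median it was -0.79, and with median centring it was -0.58. Within cartridge 2 it was -0.80 (n = 10, adjusted permutation p = 0.0190) and within cartridge 1 it was -0.39 (n = 12, adjusted permutation p = 0.250), so the relation did not pass in cartridge 1.

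Cx3cr1 and Cxcl16 ran together as deposited, at r = 0.74 and rho = 0.71 (adjusted permutation p = 0.00024 and 0.000435), with 0.84 within cartridge 1 (adjusted permutation p = 0.00243) and 0.66 within cartridge 2 (0.0551), and 0.64 without the 2 samples farthest from the median. This relation did not hold after each sample was centred on its median gene, where r was -0.0024 (adjusted permutation p = 0.992). Cx3cl1 and Cxcl16 gave r = -0.51 and rho = -0.58 (adjusted permutation p = 0.0146 and 0.0062) as deposited, -0.63 without the 2 farthest samples, and 0.57 (0.00829) after centring, a change of sign. The median gene of a sample itself correlated with each of them, at r = -0.75 with Cx3cl1, 0.77 with Cx3cr1 and 0.58 with Cxcl16 (n = 22, as descriptions).

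The genes whose levels were most like those of Cx3cr1 were led by 3 of the macrophage list. The complement genes C1qc, C1qb and C1qa, the complement receptor gene C3ar1 and the maturation marker Cd83 had r of 0.96, 0.96, 0.96, 0.96 and 0.95 over the 22 samples, and 0.93, 0.92, 0.93, 0.92 and 0.90 after median centring. The points share lanes and their depth, and these r are descriptions. On the log2 scale the Cx3cr1 level minus the mean level of the 3 complement genes averaged -1.53 ± 0.27 (SD, n = 6) in vehicle, -1.85 ± 0.55 (n = 4) with entinostat, -1.78 ± 0.24 with entinostat plus anti-PD-1, -1.70 ± 0.51 with entinostat plus anti-CTLA-4 and -1.74 ± 0.033 in the triple combination. Its SD over all samples was 0.35, against 1.02 for Cx3cr1 and 1.20 for the complement mean. These 3 genes had the highest r with Cx3cr1 in the same samples, so a small SD followed from their r and adds nothing to it. The other macrophage genes tested, Adgre1, Csf1r, Fcgr1 and Mrc1, had r of 0.92, 0.88, 0.87 and 0.87 with Cx3cr1, and 0.86, 0.80, 0.77 and 0.76 after median centring.

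Of the monocyte and macrophage list, 7 of 10 genes in the table passed the filter, and their summed level ran from 464 to 3165 normalized counts in vehicle, 919.6 to 3159 with entinostat, 647 to 3171 with entinostat plus anti-PD-1, 308 to 1835 with entinostat plus anti-CTLA-4 and 609 to 2728 in the triple combination. Of these 7 genes, 0 were called in any pair of groups. Of all 420 genes, 40% were called with entinostat against vehicle and 21.9% with entinostat plus anti-PD-1 against vehicle. Between entinostat plus anti-CTLA-4 and entinostat 48.3% were called, and between it and entinostat plus anti-PD-1 31%. In every other pair the share was 0%. Ccr2 passed the background limit in 1 of 22 samples and Mertk in 7. In RNA from whole isolates, fewer cells of a type and less RNA per cell cannot be told apart. The part of macrophage RNA in the Cx3cr1 level was not tested.

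The 5 genes most like Cx3cl1 were known for different roles. The laminin subunit gene Lamb3 (r = 0.77), the Golgi glycoprotein gene Glg1 (0.73), the urokinase gene Plau (0.72), the LIM protein gene Crip1 (0.69) and the integrin subunit gene Itgb1 (0.68) led over the 22 samples. After median centring these r were 0.94, 0.95, 0.91, 0.93 and 0.93, and with group means subtracted 0.68, 0.63, 0.58, 0.56 and 0.55. Epithelial markers followed the same course, with r of 0.66 for Cdh1 (E-cadherin), 0.62 for Ptprk and 0.56 for F11r. Endothelial Cdh5 and Sele and the leukocyte gene Ptprc ran the other way, at -0.70, -0.64 and -0.67.

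The 3 epithelial genes passed the filter in an isolate labelled as G-MDSCs, with summed levels of 1527 to 2166 normalized counts in vehicle, 1337 to 1605 with entinostat, 1474 to 1708 with entinostat plus anti-PD-1, 1419.5 to 2316 with entinostat plus anti-CTLA-4 and 1496 to 1970.1 in the triple combination. Cdh1 alone was at 717 to 1310.5 normalized counts. Like Cx3cl1, Cdh1 was called between entinostat plus anti-CTLA-4 and entinostat (0.46, SE 0.169, limma adjusted p = 0.0348), as was Ptprk (0.44, adjusted p = 0.0443), and F11r was at 0.38 (0.0718). With entinostat against vehicle, Cdh1 fell by 0.41 (limma adjusted p = 0.0418), Ptprk fell by 0.44 (0.0363) and F11r was at -0.28 (0.155). Of all 420 genes, 5.71% were called higher in the first of these comparisons and 3.81% lower in the second. After median centring the 3 epithelial genes were called higher in the first, as were 28.8% of all genes. In the second they were called lower, as were 19.3% of all genes. The Cx3cl1 level minus the Cdh1 level on the log2 scale averaged -3.19 ± 0.28 (SD, n = 6) in vehicle and -3.16 ± 0.33 (n = 4) with entinostat. It averaged -3.04 ± 0.10 with entinostat plus anti-PD-1, -3.08 ± 0.22 with entinostat plus anti-CTLA-4 and -3.29 ± 0.18 in the triple combination. The SD of this difference over all samples was 0.24, against 0.30 for Cx3cl1 and 0.27 for Cdh1. The part of epithelial RNA in the Cx3cl1 level was not tested.

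Cxcl16 was most like Daglb, a lipase gene (r = 0.83 over the 22 samples), followed by C3ar1 (0.75), Cx3cr1 (0.74), C1qb (0.74) and the inhibitory Fc receptor gene Fcgr2b (0.74). With each sample centred on its median gene, Daglb kept its sign at 0.43, and the others stood at -0.14, -0.0024, -0.17 and -0.15.

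**Figure D3:**
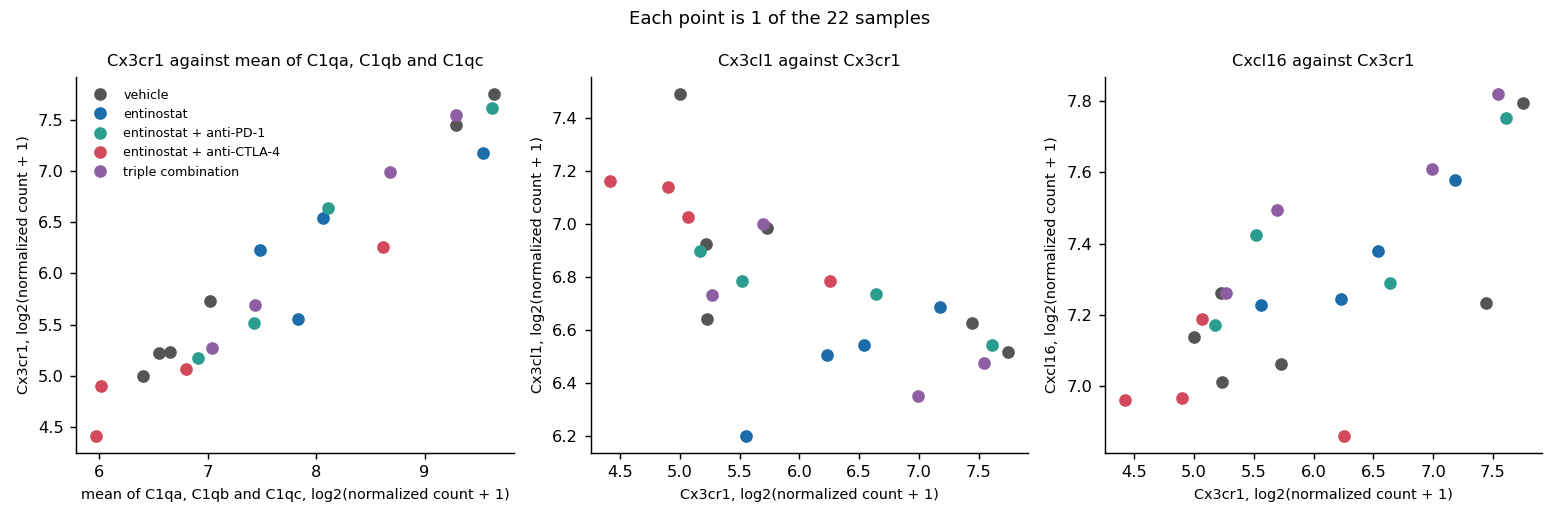
Log2(normalized count + 1) of Cx3cr1 against the mean of C1qa, C1qb and C1qc, of Cx3cl1 against Cx3cr1 and of Cxcl16 against Cx3cr1, with 1 point per sample coloured by treatment group. Cx3cr1 climbs with the complement genes in all 5 groups, Cx3cl1 falls as Cx3cr1 climbs (r = -0.65), and Cxcl16 climbs with it (r = 0.74).

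Genes around these chemokines were read from lists of their sheddases, receptors, signalling and inducers. The panel held neither Adam10, Adam17 nor Cxcr6, so the receptor of Cxcl16 was not measured. Of 7 listed sheddases and their regulators, 2 were tested. Timp3, an inhibitor of metalloproteases, rose with entinostat against vehicle by 1.48 on the log2 scale (SE 0.430, limma adjusted p = 0.0144), and Ctss (cathepsin S) was at 0.81 (adjusted p = 0.268). With entinostat plus anti-CTLA-4 against entinostat, Timp3 fell by 1.42 (0.0205) and Ctss fell by 1.68 (0.0407), and neither passed after median centring (-0.70, 0.0968, and -0.96, 0.0822). Of the integrins that can bind fractalkine, Itga4 was at 1.09 (0.0627) and Itgb1 at -0.26 (0.167) with entinostat against vehicle. With entinostat plus anti-CTLA-4 against entinostat, Itga4 fell by 1.77 (0.00942) and Itgb1 was at 0.32 (0.116). The fall of Itga4 did not pass with quantile normalization (-0.39, 0.272). Itgb1 passed after median centring, at -0.80 (0.0385) in the first comparison and 1.04 (0.0136) in the second, and likewise with quantile normalization, TMM factors and DESeq2.

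Signalling genes downstream of the receptor were represented by 2 of 10, the kinase genes Syk and Pik3cg. Both rose with entinostat, by 1.68 (adjusted p = 0.00911) and 1.34 (0.00904), and with entinostat plus anti-PD-1, by 1.36 (0.0316) and 1.22 (0.0239), where Cx3cr1 itself was not called. The rise of Pik3cg with entinostat did not pass with quantile normalization (0.25, 0.362). With entinostat plus anti-CTLA-4 against entinostat, Syk fell by 2.19 and Pik3cg fell by 1.94 (limma adjusted p = 0.00257 for both), and Pik3cg did not pass with quantile normalization (-0.59, 0.0532). Of 6 scavenger receptor genes, Olr1, a receptor for oxidized lipoprotein like Cxcl16, was tested and rose by 1.82 (0.00851) with entinostat and by 1.39 (0.0352) with entinostat plus anti-PD-1. It fell by 2.24 (0.00291) between entinostat and entinostat plus anti-CTLA-4. Of all 420 genes, 36.2% were called higher with entinostat and 20.5% with entinostat plus anti-PD-1, each against vehicle. Between entinostat and entinostat plus anti-CTLA-4, 42.6% were called lower.

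Cytokines such as TNF, IL-1 and interferon gamma are known to induce both chemokines in other cells, and these were read as a list with their receptors and transcription factors. Of 13 listed genes 10 were tested, and Ifng was below the filter. With entinostat against vehicle 8 of the 10 rose and 0 fell, among them Il1b by 1.67 (limma adjusted p = 0.00796) and Ifngr1 by 0.73 (0.0106), with a list median of 0.88 against 0.50 over all 420 genes. Of all genes 36.2% were called higher and 3.81% lower there. After median centring 3 of 10 rose and 0 fell, where 22.6% of all genes were called higher and 19.3% lower, and with edgeR's TMM factors Tnfrsf1a stood at -0.28. With entinostat plus anti-CTLA-4 against entinostat, 8 of 10 fell, among them Il1b (-2.02, 0.00277) and Ifngr1 (-0.68, 0.0163), with a median of -0.91 against -0.67 and 42.6% of all genes called lower. After centring 3 of 10 fell, where 24.8% of all genes were called lower and 28.8% higher, so these shares were near the background. In that setting Ifngr1 stood at 0.043 and Tnfrsf1a at 0.26. With entinostat plus anti-PD-1 against vehicle 5 of 10 rose, where 20.5% of all genes were called higher and 1.43% lower, and with the triple combination or entinostat plus anti-CTLA-4 against vehicle 0 of 10 were called.

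Cell type markers were read in the same comparisons, where 36.2% of all genes were called higher with entinostat and 42.6% lower between entinostat and entinostat plus anti-CTLA-4. As deposited and after median centring, the 8 neutrophil genes tested all rose with entinostat against vehicle and fell between entinostat and entinostat plus anti-CTLA-4, with summed levels of 21049.9 to 40729.9 normalized counts with entinostat, 5771 to 24596 in vehicle and 3459 to 21918 with entinostat plus anti-CTLA-4. Summed levels of the 4 pan-leukocyte genes were 2534 to 3778, 643 to 2759 and 449 to 2332 in the same groups, and 4 of 4 rose and 4 of 4 fell in those comparisons. Of 4 endothelial genes, 3 rose with entinostat (Sele by 2.22, adjusted p = 0.0161; Selp by 3.00, 0.0200; Ptprb by 2.11, 0.0219) and 3 fell between entinostat and entinostat plus anti-CTLA-4, with sums of 162 to 751, 23.0 to 250.4 and 24.9 to 461. After median centring 3 of 4 rose and 2 of 4 fell. Of 5 fibroblast genes tested, the collagen gene Col3a1 rose with entinostat by 1.70 (0.0390), and 2 fell, the growth factor receptor gene Pdgfra (-0.64, 0.0167) and the collagen gene Col11a1 (-0.55, 0.0172), in the direction of the Cx3cl1 difference. With entinostat plus anti-CTLA-4 against entinostat, Pdgfra rose by 0.71 (0.0121), Col1a2 fell by 1.40 (0.0471), and Col11a1 was at 0.44 (0.0527). After median centring Pdgfra (-1.18, 0.0131) and Col11a1 (-1.09, 0.0110) were called lower with entinostat, as were 19.3% of all genes. Both were called higher in the second comparison (1.43, 0.00586, and 1.16, 0.00687), as were 28.8% of all genes. Col3a1 in the first (1.16, 0.0609) and Col1a2 in the second (-0.68, 0.161) did not pass after centring. Their 5-gene sums were 956 to 2229 in vehicle, 1151 to 1615 with entinostat and 1029.8 to 1573 with entinostat plus anti-CTLA-4. Of the 4 dendritic cell genes and the 1 T and NK cell gene in the table, none passed the filter. The part of these lists in the levels of Cx3cl1, Cxcl16 and Cx3cr1 was not tested.

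**Figure D4:**
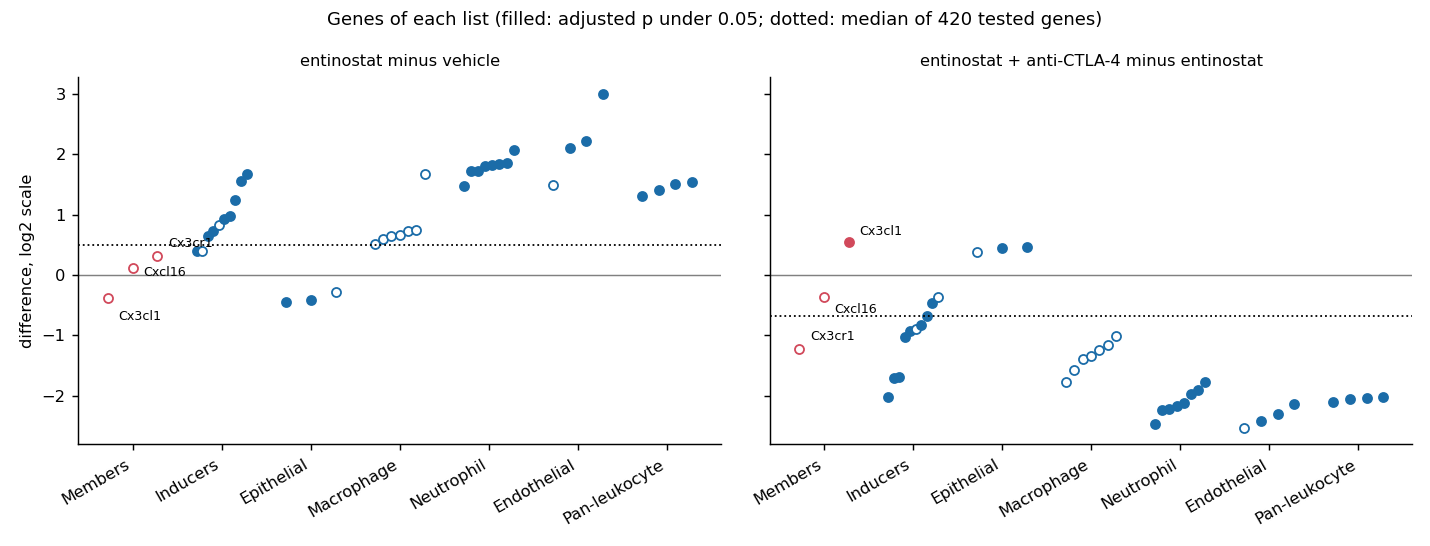
Differences on the log2 scale for Cx3cl1, Cxcl16 and Cx3cr1 (red) and for the genes of 6 lists (blue), with entinostat minus vehicle on the left and entinostat plus anti-CTLA-4 minus entinostat on the right; filled points have an adjusted p under 0.05 and the dotted line is the median of the 420 tested genes. Cx3cl1 lies on the same side of 0 as the 3 epithelial genes in both comparisons. Of the fibroblast and integrin genes, which are not drawn, Pdgfra, Col11a1 and Itgb1 also lie on that side. Col1a2, Col3a1, Fn1 and Itga4 lie on the other. Cx3cr1 lies on the same side as the 7 macrophage genes, of which 0 were called. The inducer, neutrophil, endothelial and pan-leukocyte genes and the median of all tested genes also lie on the side of Cx3cr1.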

How the data were processed

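Total RNA of 22 G-MDSC isolates was measured on the nCounter mouse myeloid panel. The deposited table holds a signal on a linear scale, normalized counts by the authors, for 655 endogenous genes. How they were normalized is not given in the sources used here. Limma is named in the submitters' processing notes with no role. In the deposited values, 100% of values up to 200 in each lane were whole multiples, within 0.1 step, of a step of 0.400 to 9.78 normalized counts, which gave back barcode counts for depth, intervals and the count tests. Values under 1 had been set to 1. Housekeeping genes had a nearly level geometric mean per lane, 172 to 194, while the median gene ran from 23.6 to 78.2, so any change in the housekeeping genes would shift every other gene.

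Limma 3.58.1 (R 4.3.3) was run on log2(normalized count + 1), with 5 group means in 1 fit of all samples and the 10 pairs of groups as contrasts. A gene was tested where any group mean lay above 29.3 normalized counts, which is 2 SD over the mean of the negative controls. Benjamini-Hochberg adjusted p under 0.05, two-sided, over the 420 genes counts as called. Alternatives were another pseudocount (10), no filter, background subtraction, median centring, quantile normalization, edgeR 4.0.16 and DESeq2 1.42.0 on barcode counts, sample weights, cartridge and replicate blocks, and leaving out samples. Correlations used 100000 permutations. The limma and edgeR fits were tested on simulated data with rises and falls in equal number. A first simulation with all changes in 1 direction, where TMM factors failed, was replaced by it and is kept as a second test, run also with median centring and DESeq2. Both simulations took the deposited scaling as given.

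The genes and lists were chosen with earlier results of these data known. By rule, the text names the 3 genes, of each list up to 3 genes with the smallest p in entinostat against vehicle, marker genes as needed, and for each of the 3 genes the 5 with the highest correlation. A gene that the rule names is not reported here. Every pair of samples differed by more than sampling noise, with a chi-square per degree of freedom of at least 2.32. Replicate numbers did not pair samples.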

Additional observations from a re-analysis of the deposited data

Results flagged for a closer look

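Cxcl16 in vehicle sample 2 stood apart from the other 5 vehicle samples, at 7.79 on the log2(normalized count + 1) scale, or 221 normalized counts against 128 to 152. The gap to the next sample was 0.681 of the group's range, beyond Dixon's critical value for 6 samples. Of 15 combinations of a gene and a group examined this was the 1 that stood out, and chance gives about 1 in 20. The same sample had the highest Cx3cr1 (214) and the lowest Cx3cl1 (90.5) of the vehicle group. Without it, limma called Cx3cl1 lower with entinostat than in vehicle (-0.45, adjusted p = 0.0422) and Cxcl16 lower with entinostat plus anti-CTLA-4 than with entinostat (-0.36, 0.0445) and than with entinostat plus anti-PD-1 (-0.41, 0.0339).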

How the results depend on the processing

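Over the 3 genes in 10 pairs of groups and the F test, the 3 correlations and 2 list counts, 1077 of 1199 values under an alternative kept their direction and their side of the threshold. The call of Cx3cl1 between entinostat plus anti-CTLA-4 and entinostat held with a pseudocount of 10 and with no filter. Values that changed follow, as log2 differences, adjusted p or r, each with the setting in parentheses. The cause of these changes was not tested. Cx3cl1 in entinostat minus vehicle, -0.38 as deposited, was -0.92 (median centring), -0.93 (quantile normalization), -1.14 (TMM factors), -1.02 (DESeq2), -0.51 (background subtraction) and -0.57 (sample weights). Cx3cl1 in entinostat plus anti-CTLA-4 minus entinostat, 0.54 as deposited, was 0.51 (cartridge as a block). Cx3cl1 in entinostat plus anti-CTLA-4 minus entinostat plus anti-PD-1, 0.29 as deposited, was 0.83 (TMM factors) and 0.85 (DESeq2). Cx3cl1 in triple combination minus entinostat plus anti-PD-1, -0.10 as deposited, was 0.077 (TMM factors), 0.064 (DESeq2) and 0.030 (sample weights). Cx3cl1 in the F test, with adjusted p = 0.161 as deposited, had 0.0294 (median centring), 0.0441 (quantile normalization), 0.0159 (TMM factors) and 0.0131 (sample weights). Cx3cr1 in entinostat minus vehicle, 0.32 as deposited, was -0.22 (median centring), -0.26 (quantile normalization), -0.57 (TMM factors), -0.015 (edgeR on lane factors), -0.45 (DESeq2) and -0.16 (V1 and V2 left out). Cx3cr1 in entinostat plus anti-PD-1 minus vehicle, 0.17 as deposited, was -0.13 (median centring), -0.23 (quantile normalization), -0.24 (TMM factors), -0.19 (DESeq2) and -0.30 (V1 and V2 left out). Cx3cr1 in triple combination minus vehicle, 0.31 as deposited, was -0.27 (TMM factors), -0.14 (DESeq2), -0.96 (cartridge 1 alone) and -0.16 (V1 and V2 left out). Cx3cr1 in entinostat plus anti-PD-1 minus entinostat, -0.14 as deposited, was 0.090 (median centring), 0.030 (quantile normalization), 0.33 (TMM factors), 0.074 (edgeR on lane factors) and 0.26 (DESeq2). Cx3cr1 in entinostat plus anti-CTLA-4 minus entinostat, -1.22 as deposited, was -1.58 (sample weights). Cx3cr1 in triple combination minus entinostat, -0.0038 as deposited, was 0.30 (median centring), 0.31 (quantile normalization), 0.31 (TMM factors), 0.031 (edgeR on lane factors), 0.31 (DESeq2), 0.016 (background subtraction), 0.013 (a pseudocount of 10) and 0.36 (triple combination a and vehicle 3 left out). Cx3cr1 in entinostat plus anti-CTLA-4 minus entinostat plus anti-PD-1, -1.08 as deposited, was -1.16 (sample weights). Cx3cr1 in triple combination minus entinostat plus anti-PD-1, 0.14 as deposited, was -0.021 (TMM factors), -0.044 (edgeR on lane factors), -0.061 (cartridge as a block) and -0.97 (cartridge 1 alone). Cx3cr1 in the F test, with adjusted p = 0.485 as deposited, had 0.0495 (sample weights). Cxcl16 in entinostat minus vehicle, 0.11 as deposited, was -0.43 (median centring), -0.42 (quantile normalization), -0.58 (TMM factors), -0.46 (DESeq2) and -0.014 (cartridge 1 alone). Cxcl16 in entinostat plus anti-PD-1 minus vehicle, 0.16 as deposited, was -0.15 (median centring), -0.16 (quantile normalization), -0.24 (TMM factors) and -0.20 (DESeq2). Cxcl16 in triple combination minus vehicle, 0.30 as deposited, was -0.032 (TMM factors), -0.0095 (DESeq2), 0.38 (sample weights) and -0.11 (cartridge 1 alone). Cxcl16 in entinostat plus anti-PD-1 minus entinostat, 0.051 as deposited, was -0.032 (sample weights). Cxcl16 in entinostat plus anti-CTLA-4 minus entinostat, -0.36 as deposited, was 0.35 (median centring), 0.28 (quantile normalization), 0.47 (TMM factors), 0.40 (DESeq2) and -0.34 (sample weights). Cxcl16 in triple combination minus entinostat, 0.19 as deposited, was -0.10 (cartridge 1 alone). Cxcl16 in entinostat plus anti-CTLA-4 minus entinostat plus anti-PD-1, -0.41 as deposited, was 0.072 (median centring), 0.023 (quantile normalization), 0.13 (TMM factors), 0.13 (DESeq2) and -0.31 (sample weights). Cxcl16 in triple combination minus entinostat plus anti-PD-1, 0.14 as deposited, was -0.15 (cartridge 1 alone). Cxcl16 in triple combination minus entinostat plus anti-CTLA-4, 0.55 as deposited, was 0.47 (sample weights) and 0.65 (triple combination a and vehicle 3 left out). Cxcl16 in the F test, with adjusted p = 0.105 as deposited, had 0.0143 (sample weights). The correlation of Cx3cl1 with Cx3cr1, -0.65 as deposited, was -0.39 (cartridge 1 alone). The correlation of Cx3cl1 with Cxcl16, -0.51 as deposited, was 0.57 (median centring), -0.36 (cartridge 1 alone), -0.53 (cartridge 2 alone), -0.33 (group means subtracted) and 0.54 (group means subtracted after centring). The correlation of Cx3cr1 with Cxcl16, 0.74 as deposited, was -0.0024 (median centring), 0.66 (cartridge 2 alone) and -0.078 (group means subtracted after centring). After median centring 3 of the inducing genes were called, against 8 as deposited, in entinostat minus vehicle and in entinostat plus anti-CTLA-4 minus entinostat. Cartridge 1 held 1 triple combination sample (a), so each triple combination value for cartridge 1 alone rests on that sample. Leaving out triple combination a with vehicle 3 was added after seeing the data.

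With each of the 22 samples left out in turn, the results that changed direction or call had these ranges. Cx3cl1 in entinostat plus anti-CTLA-4 minus entinostat ran from 0.45 to 0.62 and Cx3cl1 in entinostat plus anti-PD-1 minus vehicle ran from -0.19 to 0.0011. Cx3cl1 in entinostat minus vehicle ran from -0.45 to -0.25 and Cx3cr1 in triple combination minus entinostat ran from -0.39 to 0.36. Cx3cr1 in triple combination minus entinostat plus anti-PD-1 ran from -0.25 to 0.60 and Cx3cr1 in triple combination minus vehicle ran from -0.079 to 0.68. Cx3cr1 in entinostat plus anti-PD-1 minus entinostat ran from -0.60 to 0.21 and Cx3cr1 in entinostat plus anti-PD-1 minus vehicle ran from -0.29 to 0.53. Cxcl16 in the F test (adjusted p) ran from 0.0254 to 0.213 and Cxcl16 in entinostat plus anti-CTLA-4 minus entinostat ran from -0.43 to -0.29. Cxcl16 in entinostat plus anti-CTLA-4 minus entinostat plus anti-PD-1 ran from -0.49 to -0.30 and Cxcl16 in triple combination minus entinostat plus anti-CTLA-4 ran from 0.46 to 0.65. Cxcl16 in entinostat plus anti-PD-1 minus entinostat ran from -0.064 to 0.13.

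The replicate numbers did not pair the samples. With the replicate number as a block the direction turned for Cx3cl1 in triple combination minus entinostat (-0.10), Cx3cr1 in entinostat minus vehicle (-0.16), Cx3cr1 in entinostat plus anti-PD-1 minus vehicle (-0.30) and Cx3cr1 in triple combination minus entinostat (0.66), and no call of the 3 genes in a pair of groups changed.

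Median centring, quantile normalization, TMM factors and DESeq2 assume about as many rises as falls. The calls in entinostat minus vehicle were 152 higher and 16 lower as deposited, 95 and 81 after median centring, and 80 and 107 with DESeq2. The split thus depends on the scaling itself and cannot show whether that assumption holds. On simulated data with every change upward, median centring, TMM factors and DESeq2 missed most of the smaller changes and made many false calls. Those data were drawn on the deposited scaling, so they could not show which scaling suits the real samples. Calls that differ between the deposited scaling and these settings are uncertain, whichever of them makes the call. Quantile normalization was not simulated. DESeq2 gave the 3 genes no adjusted p in the triple combination minus entinostat plus anti-CTLA-4 and ran no F test, and no within-cartridge value exists for groups that share no cartridge. Depth was least in triple combination sample 2, with 23296 barcode counts and 9 of Cx3cl1.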

Other observations

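The genes least like Cx3cl1 over the 22 samples were Man2b1 (a lysosomal mannosidase gene, r = -0.81), Ski (a repressor of TGF-beta signalling, -0.81) and Tlr2 (a receptor for bacterial lipoproteins, -0.79). They were named after their values were seen, and the points share lanes and depth. After median centring r was -0.67, -0.39 and -0.91. For Cx3cr1 the least alike were Lamb3 (r = -0.80), the tetraspanin gene Cd151 (-0.79) and Itgb1 (-0.74), and after median centring these stood at -0.63, -0.62 and -0.59.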
